A study of Monodelphis domestica and Mus musculus with 26 samples.

Results

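Kinesins are motor proteins that use ATP to walk along microtubules or to take microtubules apart. The genes described here are those whose symbol is KIF or KIFC followed by a number and, for some, a letter, with Kif3a and Kif3b left out. By this rule 40 of the 32532 features in the mouse single-cell tables are kinesins, and 32 of the 32251 features in the opossum single-cell tables and 32 of the 34985 genes in the opossum bulk tables. Together the species hold 42 such symbols, of which 30 occur in both. They were sorted by known role into spindle and division motors (14 in mouse, 13 in opossum), motors of the cilium and flagellum (8 and 7), and motors of cargo transport or with other roles (18 and 12). The motor listed as Kif4 in mouse and KIF4A in opossum, and the one listed as Kif19a and KIF19, were not paired between species because the symbols differ. Kifc1, which has a near-identical copy in the mouse genome, is uncertain.

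A germ cell passes through mitosis as a spermatogonium, through a long meiotic prophase and the meiotic divisions as a spermatocyte, and then, as a spermatid, builds a flagellum and reshapes its nucleus without dividing. Spindle kinesins separate spindle poles, move or shorten chromosome-bound microtubules and organise the midzone where a dividing cell is cut. Kinesins of the cilium act in the axoneme or control ciliary length, and the manchette, a skirt of microtubules around the spermatid nucleus, also serves as a track for motors. The question put to the data was at which of these stages each kinesin transcript was found in each species, and how its level in the opossum testis ran with age.

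The mouse group held 3 single-cell libraries of whole testis from adult C57BL6/J males of 8 to 16 weeks. The opossum group held 3 single-cell libraries of whole testis from adult gray short-tailed opossums (Monodelphis domestica), a marsupial. The opossum bulk group held 20 RNA-seq libraries of testis at 1 month (2 libraries), 2 months (4), 3 months (4), 4 months (3) and in adults (7), of which 16 were made by polyA selection and 4 by depletion of ribosomal RNA. No genotype or treatment is named, and the testes were dissociated with collagenase and trypsin. Nothing in the labels says that the 3 single-cell libraries of a species came from separate animals, so p-values measure the spread between these libraries.

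Cells were grouped by clustering without the kinesins and named from marker genes, and transcripts were counted as unique molecular identifiers (UMIs), summed over the cells of a class in a library. In mouse 1397 cells were spermatogonia, 3865 spermatocytes, 6443 round spermatids and 4469 elongating spermatids. In opossum these were 465, 3549, 1659 and 3242. Clusters left without a name held 4881 of 23409 mouse cells and 2204 of 20007 opossum cells, which enter no stage level or change. Summed UMIs per library and germ-cell class ran from 588888 to 24739996 in mouse and from 581601 to 7129827 in opossum. Levels are given as CPM, the UMIs of a gene scaled to a fixed total of all UMIs in the class and library. The libraries shared 0 to 198 cell barcodes per pair in mouse and 30 to 43 in opossum. The summed level of 27 markers of elongating spermatids was 222520 to 274812 CPM in mouse elongating spermatids, and it was 1252 to 15714 CPM in mouse spermatogonia and 15776 to 87579 CPM in mouse Sertoli cells, the somatic nurse cells. In opossum the same sum over 16 markers was 43967 to 88518 CPM in elongating spermatids and at most 64.9 CPM in spermatogonia. Summed markers of spermatogonia were at 4805 to 6047 CPM in opossum spermatogonia and 3323.5 to 5944 CPM in opossum Sertoli cells (19 markers). In elongating spermatids they were at 308 to 1101 CPM in opossum and 59.9 to 111 CPM in mouse. Their part in the opossum changes was not tested. The summed level of round spermatid markers was 8562 to 10787 CPM in mouse round spermatids and 2935 to 3534 CPM in elongating ones (26 markers), but in opossum it was 1084 to 1177 CPM in the class named round spermatids and 1559 to 2650 CPM in the elongating class (8 markers). Summed early spermatocyte markers had means of 1564 CPM in mouse spermatogonia (1207 to 2243) and 1191 CPM in mouse spermatocytes (594 to 2005, 16 markers). In opossum they were at 1258 to 1404 CPM and 1591 to 1699 CPM (9 markers). How far early meiotic cells in the mouse class named spermatogonia enter its levels and the first step was not tested.

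Promoters are shown for 3 spindle motors that fell from round to elongating spermatids in mouse and carry both of the motifs marked below; Kif23 and Kif11 were highest in spermatogonia and Kif18b in round spermatids (in 2 of 3 libraries). Kif22, which fell too, also carries both motifs and is not shown. The windows run from 250 bases before the annotated start site to 30 bases from it, on GRCm39 with the GENCODE annotation, written 5′ to 3′ on the strand of the gene. Capitals mark TTTGAA, the core of the CHR element known from genes expressed late in the cell cycle, and CCAAT, the CCAAT box, each searched on both strands. Kif23 (chr9:61854044-61854323, minus strand) carries TTTGAA 6 bases and CCAAT, on the other strand, 15 bases before its start site. Kif11 (chr19:37364549-37364828, plus strand) and Kif18b (chr11:102815927-102816206, minus strand) also carry both, with TTTGAA 12 and 9 bases past the start site.
Kif23: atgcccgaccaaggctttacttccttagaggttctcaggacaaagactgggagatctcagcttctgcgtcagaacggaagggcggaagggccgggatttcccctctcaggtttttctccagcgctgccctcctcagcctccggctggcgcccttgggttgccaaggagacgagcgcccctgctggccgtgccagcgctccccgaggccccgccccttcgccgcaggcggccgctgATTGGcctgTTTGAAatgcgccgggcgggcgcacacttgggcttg
Kif11: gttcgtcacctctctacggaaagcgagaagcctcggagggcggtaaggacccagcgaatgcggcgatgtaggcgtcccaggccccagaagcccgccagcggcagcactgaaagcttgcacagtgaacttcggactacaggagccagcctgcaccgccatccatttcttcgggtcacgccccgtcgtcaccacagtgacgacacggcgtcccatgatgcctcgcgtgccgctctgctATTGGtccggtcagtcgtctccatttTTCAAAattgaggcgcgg
Kif18b: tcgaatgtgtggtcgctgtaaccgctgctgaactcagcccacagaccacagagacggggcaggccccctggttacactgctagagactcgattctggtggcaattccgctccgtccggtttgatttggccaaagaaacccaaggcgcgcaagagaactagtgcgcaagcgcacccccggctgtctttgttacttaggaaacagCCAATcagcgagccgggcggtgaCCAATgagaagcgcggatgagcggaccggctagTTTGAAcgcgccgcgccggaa
TTTGAA was found in 7 of the 14 mouse spindle promoters (50.0%), against 3583 of 21770 protein-coding promoters of the same length (16.5%). The 7 genes are Kif11, Kif15, Kif18b, Kif20a, Kif20b, Kif22 and Kif23. It was found in 0 of 8 promoters of cilium motors and in 1 of 18 of the cargo motors. CCAAT was found in 7 of 14 spindle promoters against 38.8% of all promoters. The CRE motif TGACGTCA was found at Kif5c and Kif17, 2 of 40 members, and in 2.32% of all promoters. These are matches of letters and show no binding.

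Across the stages, 20 of 32 mouse kinesins and 11 of 29 opossum kinesins were at their highest in the class named spermatogonia, among members whose mean reached 10 CPM or more in some germ-cell class. Spermatocytes, round and elongating spermatids were the highest class for 3, 4 and 5 members in mouse and for 6, 7 and 5 in opossum. The difference between the species in these counts was not tested. The highest class was read from CPM without scaling factors. The shares of all genes highest in each class, or in the same class in both species, were not counted. The counts of members are thus given without a background. By role, 10 spindle, 2 cilium and 8 cargo motors in mouse, and 8 spindle, 0 cilium and 3 cargo motors in opossum, were highest in spermatogonia. Of 25 members past that level in both species, 13 were highest in the same class by the mean over libraries. That class was the highest in 1 of 3 libraries for opossum KIF21B, in 2 of 3 for mouse Kif2a, Kif2b, Kif9, Kif17 and Kif18b, and in 3 of 3 for the others of the 25 in both species. The map of levels by stage shows the order within each role group.

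**Figure D1:**
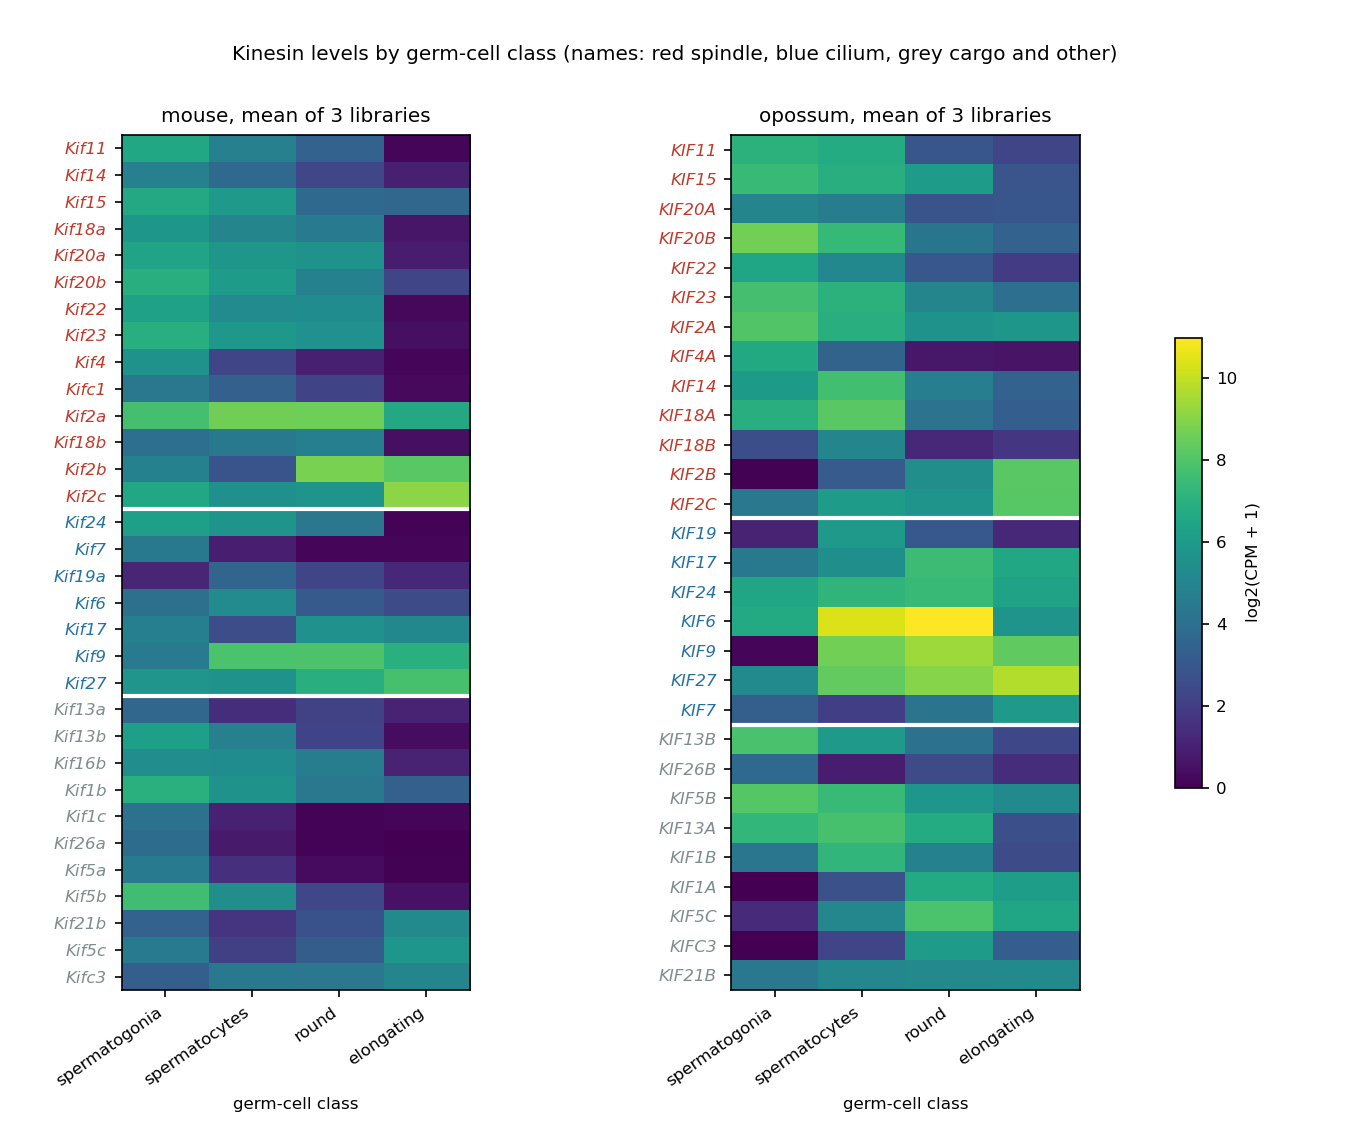
Mean level of each kinesin in spermatogonia, spermatocytes, round spermatids and elongating spermatids of mouse and opossum, as log2(CPM + 1) averaged over 3 libraries, for members that reach a mean of 10 CPM in a class, with rows grouped by role. Most mouse spindle motors are brightest in spermatogonia, and Kif2b and Kif2c are brightest in spermatids.

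Changes between neighbouring stages were tested with edgeR's quasi-likelihood test on summed counts, with the library as a block, over all genes that passed its filter on low counts. A member was called when its Benjamini-Hochberg adjusted p over all genes was under 0.05 and its log2 change was at least 1 in size. In mouse 38 members passed the filter (Kif12 and Kif19b did not). From spermatogonia to spermatocytes 5 rose and 8 fell, with 45.7% of all 18445 genes called (24.7% higher, 21.1% lower). From spermatocytes to round spermatids 6 rose and 13 fell, with 48.8% of all genes called (26.2% higher, 22.6% lower). From round to elongating spermatids 8 rose and 13 fell, with 52.6% of all genes called (19.8% higher, 32.9% lower). Without mouse replicate 1 the member counts called were 4, 3 and 14, and 3816, 4090 and 5327 genes in all were called. In opossum 29 members passed the filter (KIF12, KIFC2 and KIF3C did not). There 15 rose and 3 fell from spermatogonia to spermatocytes (54.5% of all 15956 genes called, 38.9% higher and 15.6% lower), 7 rose and 13 fell from spermatocytes to round spermatids (48.8%, 24.4% higher and 24.3% lower), and 6 rose and 5 fell from round to elongating spermatids (45.7%, 22.8% higher and 23.0% lower). Without opossum replicate 3 the last count called was 7.

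The scaling between classes shifted these counts. TMM scaling moved every log2 change against library totals by a mean of 0.89, 0.17 and 1.36 at the mouse steps and by 0.43, 0.31 and 1.38 at the opossum steps. From mouse spermatogonia to spermatocytes 5 rose and 8 fell under TMM, 4 and 15 under RLE factors, 4 and 16 under DESeq2, and 3 and 18 under library totals. From mouse round to elongating spermatids the split was 8 and 13 under TMM, 9 and 9 under RLE, 10 and 9 under DESeq2 and 5 and 16 under library totals. From opossum spermatocytes to round spermatids it was 7 and 13 under TMM, 10 and 10 under RLE and 11 and 10 under DESeq2, and at the last opossum step it was 6 and 5 under TMM and 3 and 11 under library totals. Members called in the same direction under all 4 scalings numbered 3 higher and 8 lower, 5 and 10, and 5 and 9 at the mouse steps, and 14 and 3, 7 and 10, and 3 and 4 at the opossum steps. Values below are under TMM. The calls of these members under TMM did not hold under all 4 scalings: in mouse Kif2a and Kif6 at the first step, Kif19a, Kif20b, Kif21b and Kif24 at the second, and Kif4, Kif5b, Kif13b, Kif15, Kif20b, Kif27 and Kifc3 at the last. In opossum they were KIF24 at the first step, KIF5B, KIF13B and KIF20A at the second, and KIF2A, KIF21B, KIF27 and KIFC3 at the last.

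Among the spindle motors of mouse, 10 of 14 were highest in spermatogonia, 1 in spermatocytes, 2 in round and 1 in elongating spermatids. From spermatogonia to spermatocytes 1 of the 14 rose (Kif2a, with a log2 change of 1.77 that was 0.88 and not called under library totals) and 1 fell (Kif4). From spermatocytes to round spermatids 1 rose (Kif2b) and 2 fell (Kif15, Kif20b, the latter not called under RLE or DESeq2). At the last step 9 fell and 2 rose, with a median log2 change of -2.75 against -0.58 over all genes. Of 22 partners of these motors on the spindle, among them the kinases Aurka and Plk1, 22 fell at that step. The round spermatid class holds clusters with unlike levels of these motors, from 2.83 to 95.7 CPM for Kif23, and the highest is cluster 1, which was named with a low score and holds 1678 of its 6443 cells. A fit without cluster 1 and a spermatocyte cluster of low score, cluster 8, was chosen after seeing the data. There 1 spindle motor rose and 3 fell at the first step. At the second step 3 rose and 3 fell, and at the last 2 rose and 7 fell.

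Kif11, the motor that pushes spindle poles apart, was at 65.7, 57.8 and 153 CPM in spermatogonia of mouse replicates 1, 2 and 3, at 11.8, 7.74 and 61.0 CPM in spermatocytes, at 7.55, 9.52 and 13.0 CPM in round spermatids and at 0.253, 0.0368 and 0 CPM in elongating spermatids. Replicate 3 was the highest in the first 3 classes. Spermatogonia lie above spermatocytes within each library, and the classes overlap only across libraries. Elongating spermatids held 3 UMIs of Kif11 in all, so its ratio of round to elongating spermatids was 90.3, with a counting interval of 29.4 to 420 (95%, exact Clopper-Pearson). Its fitted log2 change at that step, which depends on the prior count, was -5.20 ± 0.95 (SE, edgeR adjusted p = 0.00055).

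Kif23, which organises the midzone of the dividing cell, stood at 99.4, 106 and 156 CPM in spermatogonia, 43.8, 68.8 and 61.8 CPM in spermatocytes and 45.2, 72.2 and 22.7 CPM in round spermatids, and at most at 0.595 CPM in any library of elongating spermatids. Every elongating value was below every round value. The log2 change between these classes was -5.60 ± 0.63. Kif22, a chromosome-arm motor, changed by -6.27 ± 0.65, Kif20a, a cytokinesis motor, by -4.68 ± 0.63, and Kif18b and Kif18a, which dampen microtubule plus ends, by -4.50 ± 0.71 and -3.89 ± 0.65 (edgeR adjusted p at most 0.00028). These calls held under the 4 scalings.

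Kif4, a chromosome-bound motor of the midzone, was the spindle motor called lower from the class named spermatogonia to spermatocytes with all clusters kept. It was at 30.5, 36.6 and 77.9 CPM in spermatogonia and at 2.16, 1.17 and 8.47 CPM in spermatocytes, a log2 change of -3.01 ± 0.58 (edgeR adjusted p = 0.00098). The classes do not overlap. Kif15, an aid to spindle pole separation, had a log2 change of -2.10 ± 0.44 from spermatocytes to round spermatids and was called lower, and without replicate 1 its adjusted p was 0.059 in edgeR. At the next step its log2 change was 1.50 ± 0.44 under TMM while its mean level was 12.4 CPM in round and 11.4 CPM in elongating spermatids, and under library totals the change was 0.14 and was not called.

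Among the spindle motors of opossum, more were called lower at the second step than at the last. Of the 13, 8 were highest in spermatogonia, 3 in spermatocytes (KIF14, KIF18A, KIF18B) and 2 in elongating spermatids (KIF2B, KIF2C). From spermatogonia to spermatocytes 5 rose and 1 fell, a share near that of all genes called higher (38.9%). From spermatocytes to round spermatids 9 of 13 fell and 1 rose (KIF2B), with a median log2 change of -2.15 against -0.15 over all genes, and 10 of 14 partners fell and 0 rose. From round to elongating spermatids 3 rose (KIF2A, KIF2B, KIF2C) and 1 fell (KIF15). The change of KIF2A was 1.56 under TMM, and under library totals it was 0.11 and not called. Markers of round spermatids were themselves higher in the opossum elongating class than in the round class, and their part in the opossum changes at this step was not tested.

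KIF18A was at 102, 128 and 124 CPM in spermatogonia of opossum replicates 1, 2 and 3, at 357, 249 and 265 CPM in spermatocytes, at 22.2, 14.2 and 14.6 CPM in round spermatids and at 9.69, 6.02 and 10.5 CPM in elongating spermatids. The spermatocyte values lie above those of the other classes in each library. It rose by 1.71 ± 0.40 on the log2 scale into spermatocytes and its change into round spermatids was -3.79 ± 0.45 (edgeR adjusted p = 0.0017 and 8.8e-06).

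KIF14, a cytokinesis motor, had the same course, with 81.0, 64.3 and 43.6 CPM in spermatogonia, 281, 178 and 155 CPM in spermatocytes, 45.7, 19.4 and 9.63 CPM in round spermatids and 17.9, 4.20 and 7.96 CPM in elongating spermatids. Its changes were 2.11 ± 0.43 and then -2.87 ± 0.45. KIF18B rose by 2.88 ± 0.65 and then changed by -3.90 ± 0.74, from 34.7, 31.7 and 25.8 CPM in spermatocytes to 0.793, 1.67 and 1.82 CPM in round spermatids. KIF11 kept 126, 111 and 89.8 CPM in spermatocytes, against 156, 126 and 123 CPM in spermatogonia, and held 6.15, 5.24 and 8.65 CPM in round spermatids, a change of -3.67 ± 0.51 (edgeR adjusted p = 2.6e-05). KIF20B, a midzone motor, was at 446, 378 and 372 CPM in spermatogonia and changed by -2.83 ± 0.43 between spermatocytes and round spermatids. KIF4A, as in mouse, was lower in spermatocytes than in spermatogonia, at 13.9, 11.2 and 5.81 CPM against 114, 105 and 81.9 CPM (-2.92 ± 0.51).

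The plot by library shows the levels of 9 kinesins in the classes of both species.

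**Figure D2:**
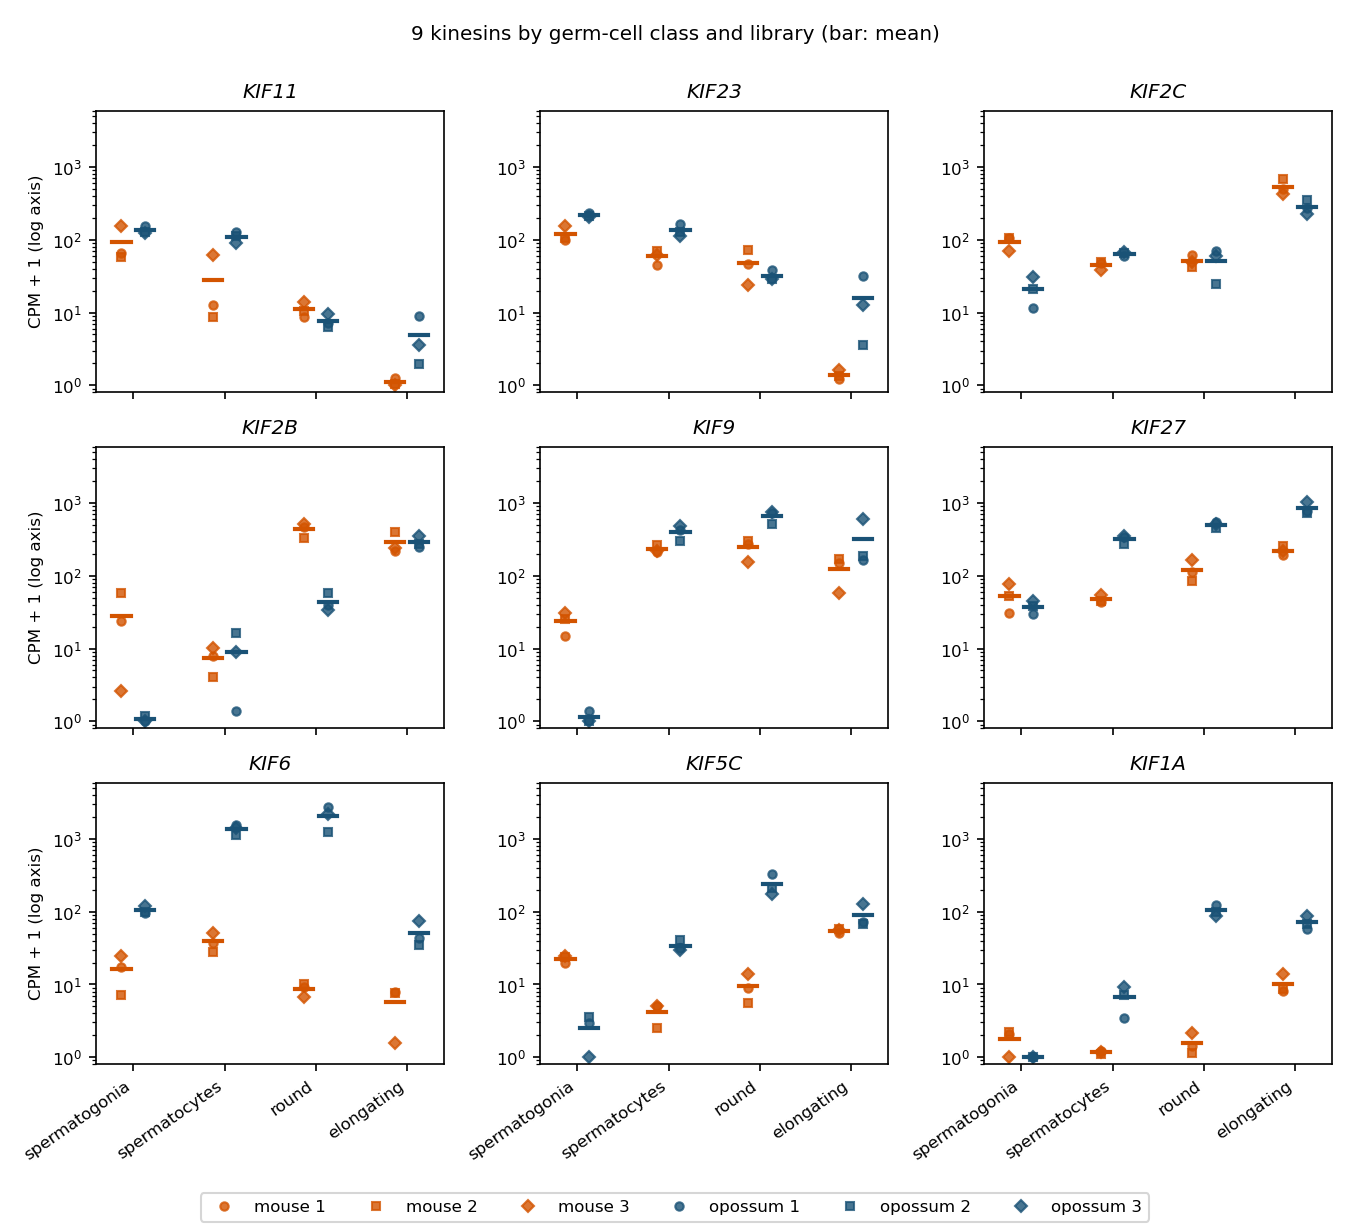
Level of 9 kinesins in each germ-cell class as CPM + 1 on a log axis, with 1 point a library (orange mouse, blue opossum, symbol by replicate) and a bar for the mean of 3 libraries. KIF2C is highest in elongating spermatids of both species, and KIF23 is near the bottom of the axis in mouse elongating spermatids.

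A set of motors that take microtubules apart holds Kif2a, Kif2b and Kif2c, and Kif2b and Kif2c were high in spermatids of both species. Kif2b (chr11:91466141-91468384, minus strand, GRCm39), which corrects attachments of chromosomes to the spindle, was at 6.81, 3.03 and 9.03 CPM in mouse spermatocytes and at 473, 328 and 521 CPM in round spermatids, with 218, 402 and 244 CPM in elongating spermatids. Its change into round spermatids was 6.28 ± 0.85 (edgeR adjusted p = 8.5e-05). In mouse spermatogonia it was listed at 23.2, 57.2 and 1.61 CPM, in the same order as the summed elongating markers in these cells, and in Sertoli cells at 183, 370 and 23.7 CPM, where the markers were at 87579, 76874 and 15776 CPM and replicates 1 and 2 are in the other order. How far RNA from broken spermatids adds to these values was not tested.

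Opossum KIF2B ran later. It was at 0, 0.182 and 0 CPM in spermatogonia, 0.376, 15.1 and 8.00 CPM in spermatocytes, 38.8, 57.4 and 32.4 CPM in round spermatids and 249.8, 275 and 352 CPM in elongating spermatids. Spermatocytes were at least 14.0-fold higher than spermatogonia, against a floor of 3 UMIs over the group. This bound is over the summed libraries and rests on replicates 2 and 3, since spermatocytes of replicate 1 lie below the floor of 0.706 CPM. The next changes were 3.06 ± 0.61 and 4.14 ± 0.61 (edgeR adjusted p = 0.00072 and 5.4e-05). With cells of at least 500 UMIs the first of these was 0.67 and was not called (edgeR adjusted p = 0.34).

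Kif2c, the centromere-bound member of the set, was at 104, 104 and 68.1 CPM in mouse spermatogonia, 60.5, 41.8 and 47.9 CPM in round spermatids and 497, 693 and 425 CPM in elongating spermatids, a change of 4.77 ± 0.38 at the last step (edgeR adjusted p = 5.2e-06). Opossum KIF2C was at 10.6, 20.1 and 30.2 CPM in spermatogonia, 59.8, 64.0 and 67.4 CPM in spermatocytes, 70.0, 24.0 and 58.9 CPM in round spermatids and 273, 357 and 226 CPM in elongating spermatids. It rose by 2.17 ± 0.52 at the first step and by 3.94 ± 0.55 at the last. In both species the elongating values lie above those of the other 3 classes, and the last rise was called under the 4 scalings. Kif2a, which depolymerises microtubules at spindle poles, was highest in mouse spermatocytes and round spermatids (347, 426 and 417 CPM, and 372, 402 and 355 CPM) and in opossum spermatogonia (229, 231 and 301 CPM).

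Of the motors of the cilium and flagellum, 6 of 7 rose and 0 fell from spermatogonia to spermatocytes in opossum, against 38.9% of all genes called higher. In mouse 3 of 7 tested rose (Kif6, Kif9, Kif19a), 1 fell (Kif7) and 3 were not called, against 24.7% called higher, and the change of Kif6 was called under TMM alone of the 4 scalings. Genes of the central apparatus, the pair of microtubules at the core of the flagellum, rose at that step in 8 of 9 in mouse and 7 of 7 in opossum. At the second step 2 of 7 cilium motors rose and 4 fell in mouse, against 26.2% of all genes called higher and 22.6% lower. In opossum 2 rose and 1 fell, against 24.4% and 24.3%. At the last step 1 rose and 1 fell in mouse, against 19.8% and 32.9%. In opossum 2 rose and 1 fell there, against 22.8% and 23.0%. The counts that rose at these steps lay near the shares of all genes. Genes of the central apparatus fell at the last step in 6 of 9 in mouse and 6 of 7 in opossum, against 32.9% and 23.0% of all genes.

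Kif9, a motor of the central apparatus, was at 13.8, 24.4 and 29.9 CPM in mouse spermatogonia, 209.6, 264 and 222 CPM in spermatocytes, 276, 305 and 154 CPM in round spermatids and 149.9, 167 and 57.6 CPM in elongating spermatids. Spermatogonia lie below the other classes in each library, and the first change was 4.18 ± 0.51 (edgeR adjusted p = 3.3e-05). Opossum KIF9 was at 0.380, 0 and 0 CPM in spermatogonia and 431, 302 and 479.6 CPM in spermatocytes, at least 538-fold higher against the floor of 3 UMIs. It held 735, 523 and 761 CPM in round and 167, 185 and 609.9 CPM in elongating spermatids. In both genomes an annotated gene on the other strand overlaps an end of this motor (Klhl18 in mouse), and reads of such partners can be told apart only by counting with strand. In mouse Kif9 runs from base 110305569 to 110355804 and Klhl18 ends at 110306016. In opossum KIF9 ends at base 196708923 and its partner starts at 196708907. Annotated genes on the other strand also overlap Kif1c, Kif2a, Kif4, Kif5a, Kif7, Kif18a, Kif19a, Kif20a, Kif24, Kifc2 and Kifc3 in mouse and KIF2A, KIF4A, KIF5C and KIF15 in opossum. Kif17 and Kif28 overlap genes on their own strand (Sh2d5 and Ahctf1), whose reads counting with strand cannot separate.

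Kif27, a motor of motile cilia, climbed in both species. In mouse it was at 42.8, 44.1 and 54.3 CPM in spermatocytes, 110.2, 83.1 and 166 CPM in round spermatids and 193, 252 and 218 CPM in elongating spermatids, with changes of 1.48 ± 0.36 (edgeR adjusted p = 0.0041, and 0.13 without replicate 1) and 2.30 ± 0.37. In opossum it went from 28.5, 37.6 and 44.2 CPM in spermatogonia to 344, 276 and 349 CPM in spermatocytes (3.59 ± 0.48) and reached 781, 721 and 1028 CPM in elongating spermatids. Under library totals the last change was 0.93 in mouse and 0.72 in opossum and was called in neither species.

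Kif6, a motor of motile cilia related to Kif9, had a lower CPM in mouse than in opossum. Effects of annotation or mapping do not cancel in such a direct comparison of species. In adult opossum bulk libraries KIF6 ranked 16 among the kinesins, against 1 in single cells, as given below. Mouse Kif6 was at 36.6, 27.0 and 50.6 CPM in spermatocytes and at most 9.13 CPM in a library of round spermatids, a change of -2.14 ± 0.72 (edgeR adjusted p = 0.024, and 0.15 without replicate 1). Opossum KIF6 was at 94.1, 98.4 and 119.6 CPM in spermatogonia, 1554, 1153 and 1421 CPM in spermatocytes, 2769.5, 1270.3 and 2229 CPM in round spermatids and 43.2, 34.0 and 74.4 CPM in elongating spermatids. It rose by 4.14 ± 0.52 at the first step and its last change was -3.95 ± 0.52 (edgeR adjusted p = 4.8e-06 and 1.3e-05). Kif17, a motor of cilia and of testis transport, rose into round spermatids in both species, by 3.34 ± 0.65 in mouse and 2.38 ± 0.41 in opossum.

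Kif24, which restrains the growth of cilia from centrioles, was at 68.3, 44.9 and 108 CPM in mouse spermatogonia and 14.9, 14.0 and 28.9 CPM in round spermatids. In mouse elongating spermatids 2 UMIs were left in all, a ratio of 228 with a counting interval of 66.3 to 1983. Opossum KIF24 stayed at 197, 129.7 and 187 CPM in round and 90.4, 78.7 and 68.5 CPM in elongating spermatids. Kif7 is the motor that organises the tip of the primary cilium in Hedgehog signalling. It fell from a mean of 20.6 CPM in mouse spermatogonia to at most 1.09 CPM in spermatocytes. Opossum KIF7 rose at the later steps, by 2.72 ± 0.60 and 3.31 ± 0.57, to 56.4, 70.2 and 56.4 CPM in elongating spermatids.

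Among the cargo motors of mouse, 6 of 17 fell from spermatogonia to spermatocytes (Kif1c, Kif5a, Kif5b, Kif5c, Kif21a, Kif26a), 1 rose (Kifc3) and 10 were not called, against 21.1% of all genes called lower. At the next step 7 fell and 3 rose, against 22.6% called lower. Kif5b, the broadly used conventional kinesin, was at 175, 189 and 231 CPM in mouse spermatogonia, 40.8, 15.1 and 69.1 CPM in spermatocytes, 3.75, 4.71 and 3.81 CPM in round spermatids and 0.359, 0 and 0.953 CPM in elongating spermatids. The second of these changes was -2.88 ± 0.59 (edgeR adjusted p = 0.0014, and 0.062 without replicate 1). Opossum KIF5B was at 304, 286 and 236 CPM in spermatogonia and 44.6, 74.4 and 42.5 CPM in round spermatids.

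The conventional kinesin known from neurons, Kif5c, fell with Kif5b at the first mouse step and rose at the later ones, where Kif5b fell. In mouse it was at 18.6, 23.2 and 23.4 CPM in spermatogonia, 3.98, 1.50 and 4.12 CPM in spermatocytes, 7.95, 4.55 and 13.0 CPM in round spermatids and 50.0, 56.6 and 54.7 CPM in elongating spermatids. The last change was 4.15 ± 0.45 (edgeR adjusted p = 1.4e-05). In opossum KIF5C was at 1.90, 2.59 and 0 CPM in spermatogonia, 30.9, 39.8 and 29.2 CPM in spermatocytes, 327, 209.6 and 175 CPM in round spermatids and 72.2, 66.8 and 125 CPM in elongating spermatids. It rose by 4.39 ± 0.64 and 3.15 ± 0.50, and round spermatids were the highest class in each library. Within round spermatids the level was uneven, and the largest cluster lay below the mean of elongating spermatids, as given below.

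Kif1a, a vesicle motor known from axons, was at 7.18, 7.64 and 12.9 CPM in mouse elongating spermatids and at most 1.21 CPM in a library of any earlier germ-cell class, and rose by 5.58 ± 0.73 at the last step. Opossum KIF1A was at 0 in spermatogonia of all 3 libraries, at 2.46, 6.25 and 8.35 CPM in spermatocytes, at least 8.49-fold higher, and at 125, 99.4 and 87.7 CPM in round spermatids (a further 4.61 ± 0.54). Opossum KIFC3, a minus-end motor, was at 0 in spermatogonia, at 2.75, 7.17 and 2.01 CPM in spermatocytes, at least 6.74-fold higher, at 88.2, 44.8 and 67.5 CPM in round spermatids and at 6.74, 10.0 and 9.82 CPM in elongating spermatids. Kif21b, another motor known from neurons, rose in mouse elongating spermatids to 35.7, 38.0 and 34.4 CPM (4.22 ± 0.54). KIF1B, a motor of mitochondria and vesicles, was highest in opossum spermatocytes at 174, 139 and 134 CPM, and in mouse spermatogonia at 109, 79.2 and 184 CPM. Of the cargo adaptors, which link these motors to their load, 2 of 11 rose and 3 fell at each of the first 2 mouse steps. Of all genes, 24.7% and then 26.2% were called higher at these steps, and 21.1% and then 22.6% lower. At the last mouse step 3 adaptors rose and 4 fell, where 19.8% of all genes were called higher and 32.9% lower. Of 4 adaptors tested in opossum, 0 were called at the first step, 1 fell at the second, and 1 rose and 2 fell at the last. Over all genes 54.5%, 48.8% and 45.7% were called at the opossum steps.

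The difference between species in each change (opossum minus mouse) was tested in 1 fit over 9206 genes with matching symbols, 29 kinesins among them. At the first step the change was higher in opossum for 12 and lower for 2, with 39.6% of all genes called (22.3% higher, 17.4% lower). At the second step it was higher for 4 and lower for 11, with 29.5% called (12.0% higher, 17.5% lower), and at the last step higher for 11 and lower for 9, with 42.8% called (28.9% higher, 13.9% lower). Without mouse replicate 1 the first count called was 9, and without opossum replicate 3 the second was 9. The second split was 6 and 6 under RLE and 9 and 9 under DESeq2, and the last was 7 and 10 under RLE and 7 and 11 under DESeq2. Over members the median difference was 1.75, -0.92 and -0.28, against 0.30, -0.27 and 0.83 over all genes, and 1.34 at the first step with the 4 genes with under 1 UMI in opossum spermatogonia placed at their bound.

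The spindle motors carry much of the difference after meiosis. At the second step 9 of 12 spindle motors had a lower change in opossum and 0 a higher one, and 5 of 14 partners had a lower change. At the last step 9 of 12 spindle motors and 13 of 14 partners had a higher change in opossum, and 1 spindle motor (KIF15, -3.59) and 0 partners a lower one. Of the spindle motors counted here, KIF2A, KIF14 and KIF23 at the second step and KIF2A, KIF2B and KIF20B at the last were not called under all 4 scalings. For KIF18A the difference was -3.99 ± 0.62 and then 4.12 ± 0.70, for KIF18B -4.58 ± 0.87 and then 5.68 ± 1.01, for KIF22 -2.65 ± 0.65 and then 6.01 ± 0.84, and for KIF23 -1.94 ± 0.63 and then 5.28 ± 0.76. KIF18A, KIF18B and KIF22 were called at both steps under the 4 scalings. Both steps share the round spermatid class, so a difference in that class alone moves the values of the steps in opposite directions. The steps are thus not independent results. The KIF23 difference at the second step lost its call in several settings, -1.49 under RLE and -0.52 with cells of at least 500 UMIs among them. Without the clusters of low depth the last KIF22 difference was 0.69 and was not called, and with cells of at least 2000 UMIs that of KIF18B was 2.92 and was not called. In the scatter of changes these motors lie below the diagonal at the second step and above it at the last.

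**Figure D3:**
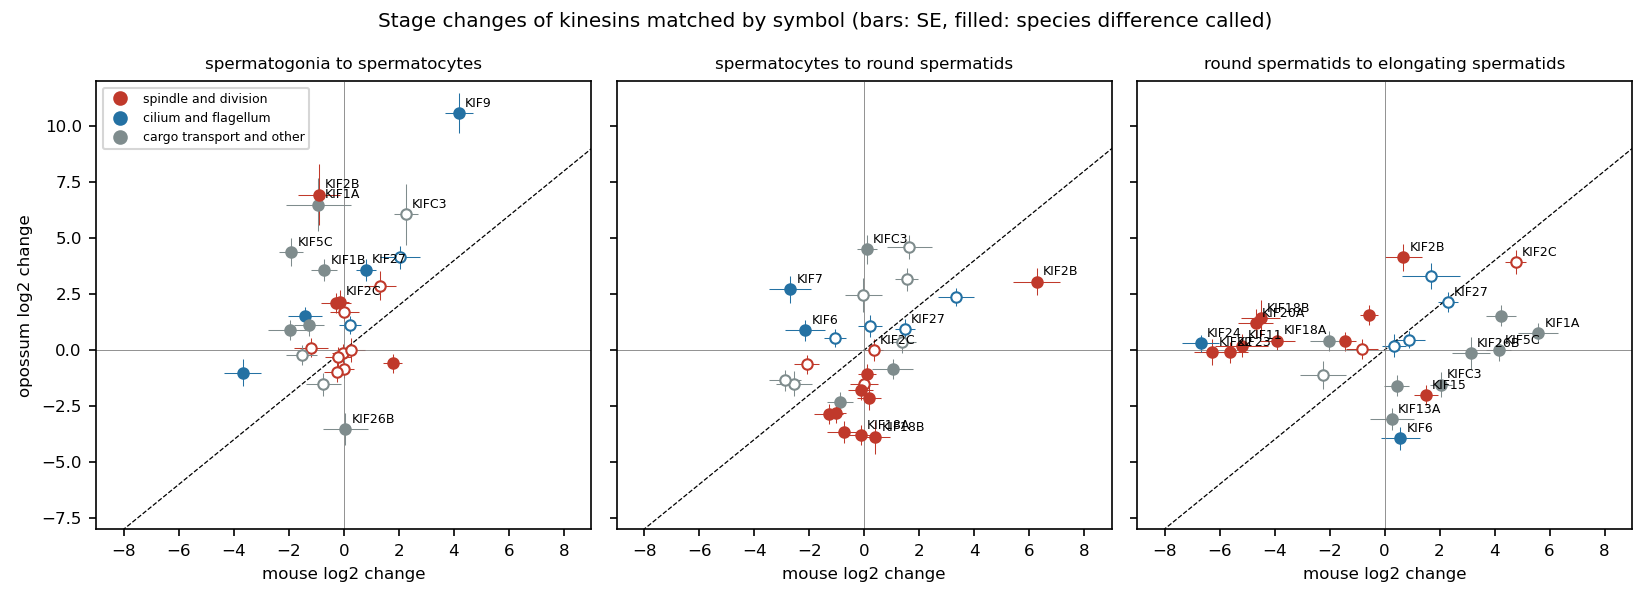
Log2 change of each kinesin between neighbouring germ-cell classes in mouse (horizontal axis) and opossum (vertical axis), 1 panel per step, with the standard error as bars and colours for the role groups. Points above the diagonal had the higher change in opossum, as KIF9 and KIF5C at the first step.

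Outside the spindle group, the differences at the first step were 5.97 ± 0.78 for KIF5C, 3.95 ± 0.61 for KIF1B and 2.40 ± 0.58 for KIF27. The fitted values of 6.16 for KIF9 and, among the spindle motors, of 8.25 for KIF2B depend on the prior count. Opossum spermatogonia held less than 1 UMI of each. The KIF2B difference also takes in mouse means of 27.3 CPM in spermatogonia and 6.29 CPM in spermatocytes. Those spermatogonia values ran in the order of the elongating markers in these cells, as given above. How far RNA from broken spermatids enters this difference was not tested. At the second step KIFC3 (4.01 ± 0.69), KIF7 (4.98 ± 0.94) and KIF6 (2.63 ± 0.74) had the higher change in opossum. At the last step the change was lower in opossum for KIF1A (-4.93 ± 0.75), KIF6 (-4.66 ± 0.79), KIF5C (-4.25 ± 0.64) and KIFC3 (-3.70 ± 0.66). It was higher for KIF24 (edgeR adjusted p = 8.2e-08), whose fitted difference of 6.78 depends on the prior count because mouse elongating spermatids held 2 UMIs.

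The classes hold several clusters, and kinesins differed among them. Mouse cluster 8, in the spermatocyte class, and cluster 1, in the round spermatid class, had the highest levels of the mitotic kinase Aurka among germ-cell clusters (688 and 667 CPM). Both were named with a low score, and cluster 1 held 356, 1225 and 97 cells of replicates 1, 2 and 3. In clusters 8 and 1 Kif23 was at 78.5 and 95.7 CPM, Kif20a at 67.8 and 81.2 CPM and Kif22 at 53.7 and 76.4 CPM, while Kif11 was at 15.5 and 7.01 CPM. In cluster 16 of the round spermatids Kif23 was at 2.83 CPM and Kif2b at 1117 CPM. Without clusters 1 and 8 the last mouse change was -5.02 for Kif23, -4.35 for Kif20a and -5.84 for Kif22, each still called, and 9 members rose and 10 fell at that step. At the second step 11 of 12 spindle motors then had a lower change in opossum than in mouse, and 8 a higher one at the last. Kif23 was at 262 CPM in cluster 13, which expressed early meiotic genes such as Prdm9 and Stra8. The map by cluster shows these groups.

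**Figure D4:**
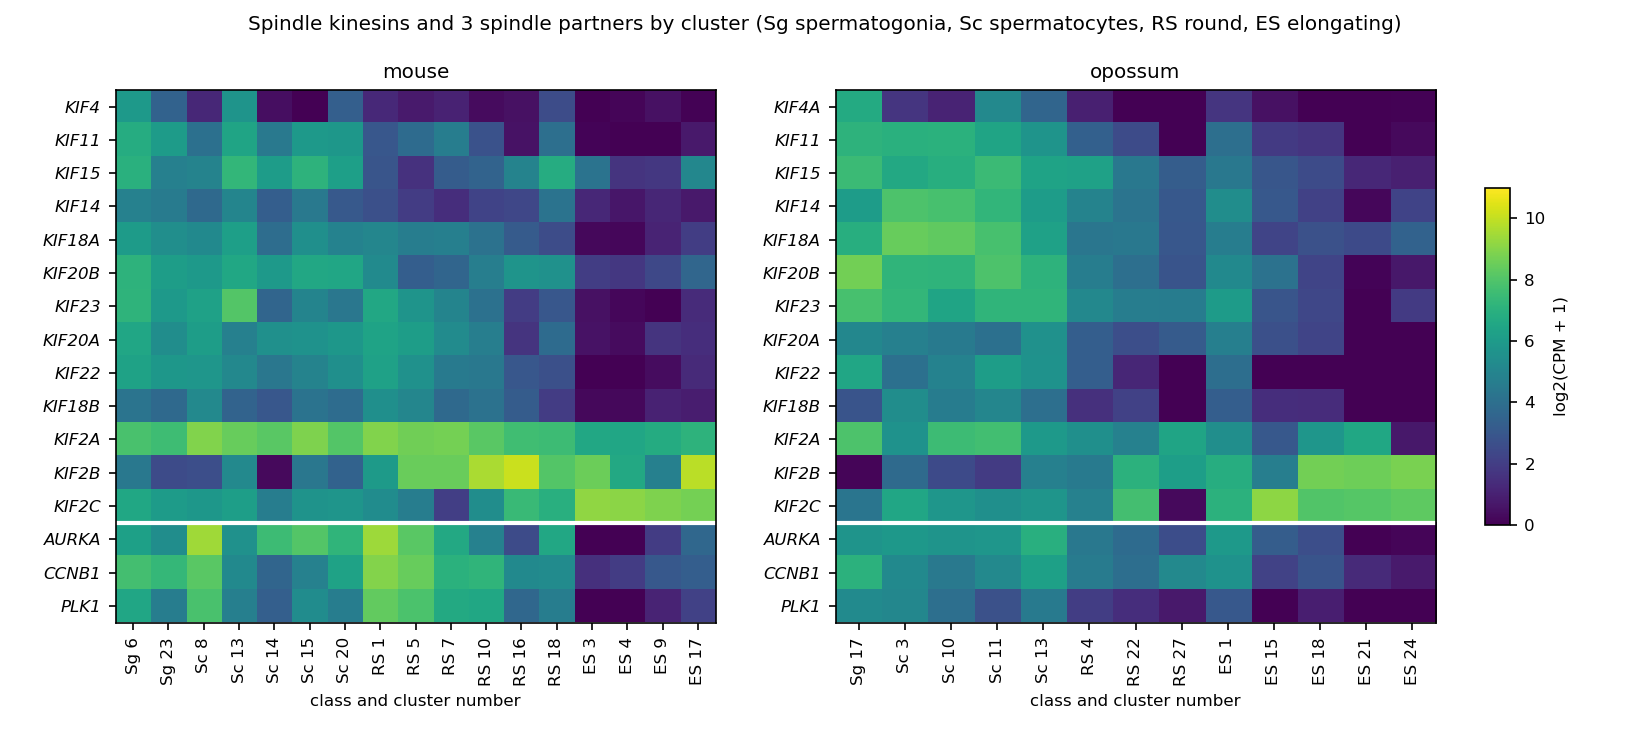
Level of 13 spindle kinesins and 3 of their partners in each germ-cell cluster of mouse and opossum, as log2(CPM + 1) over the summed cells of the cluster, with clusters ordered by class and then by number. In mouse clusters 8 and 1 Kif20a, Kif22 and Kif23 are bright and Kif11 is dim.

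In opossum, KIF5C was unevenly spread over round spermatids. It was at 1457 CPM in cluster 22 (239 cells; 1288, 1711 and 1171 CPM by library) and at 72.0 CPM in cluster 4 (1347 cells) of the same class. KIF6 ran the other way, at 176 CPM in cluster 22 and 2743 CPM in cluster 4. KIF2C was at 209.6 CPM in cluster 22 and 27.2 CPM in cluster 4, and it was highest at 562 CPM in cluster 15 of the elongating spermatids. KIF5C in cluster 4 lay below its mean of 88.0 CPM in elongating spermatids. How far cluster 22 carries the round spermatid level of KIF5C, its changes and its species differences was not tested. These cluster values are a description, since cells of a cluster are not replicates.

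The single-cell and bulk values of opossum gave kinesins different ranks. KIF6 ranked 1 of 32 by mean CPM over all cells (384 ± 36.7, SD, n = 3) and 16 by mean TPM, which is per transcript length, in adult polyA libraries (15.8 ± 8.04, SD, n = 6). KIF20A ranked 24 by CPM (11.4 ± 1.46) and 4 by TPM (93.7 ± 53.3). KIFC3 ranked 27 by CPM and 8 by TPM. The single-cell kit reads the 3′ end of a transcript while bulk reads cover its length.

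In the opossum testis, age changes were tested with limma on log2(TPM + 1), with terms for age and kind of library, and 30 of the 32 members passed the filter (KIF12 and KIFC2 did not). In bulk tissue fewer cells of a type and less RNA per cell cannot be told apart. The summed level of elongating spermatid markers was 6.58 to 7.76 TPM at 1 month, 20.3 to 437 at 2 months, 4832 to 8823 at 3 months and 8753 to 28116 in adults, and that of peritubular or stromal markers was 2410 to 3348 TPM at 1 month and 118 to 732 in adults. Their part in the values below was not tested.

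From 2 to 3 months 12 members rose and 1 fell (KIF4A), with 23.0% of 19300 genes called (8.04% lower). From 1 to 2 months 0 members were called by limma, with 11.1% of all genes called (7.22% higher, 3.88% lower) and 2 members at an unadjusted p under 0.05. From 3 to 4 months 0 members and 0% of genes were called, and from 4 months to adult 0 members and 0.0259% of genes. Between 1 month and adult 12 rose and 5 fell, with 44.8% of genes called (29.4% higher, 15.4% lower). Only 1 library of 2 months was polyA selected, and without it 1 member was called between 2 and 3 months, KIF2B, and calls over all genes went from 4440 to 141 of 19300. With polyA libraries alone 9 members rose at that step and 0 fell.

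KIF2B was at 0 and 0 TPM at 1 month, 0, 0.348, 0.124 and 0 TPM at 2 months, and 43.3, 65.7, 97.3 and 38.6 TPM at 3 months. At 4 months it was at 61.4, 98.1 and 91.7 TPM, and in adults it ran from 24.6 to 229 TPM with a median of 185. The 3-month values lie above all earlier ones. The difference of 3 from 2 months was 5.47 ± 0.72 on the log2(TPM + 1) scale (SE, limma adjusted p = 0.00012).

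KIF27 was at 6.50 and 6.66 TPM at 1 month, 9.00, 29.5, 20.6 and 3.58 TPM at 2 months and 160, 171, 205 and 138 TPM at 3 months, with a median of 311 TPM in adults (40.7 to 368). Its difference of 3 from 2 months was 3.34 ± 0.85 and of adult from 1 month 4.80 ± 0.75 (limma adjusted p = 0.010 and 5.4e-05). KIF9 went from 1.71 and 1.25 TPM at 1 month to 92.1, 86.0, 101 and 78.8 TPM at 3 months and a median of 68.3 TPM in adults. The other members that rose between 2 and 3 months were KIFC3 (4.77 ± 1.06), KIF17 (4.07 ± 1.22), KIF1A (3.73 ± 1.08), KIF6 (3.11 ± 0.62), KIF2C (2.75 ± 0.68), KIF20A (2.66 ± 0.74), KIF19 (2.52 ± 0.57), KIF18B (2.45 ± 0.71) and KIF24 (2.43 ± 0.84). Without a single library at 2 or 3 months, KIF24 or KIF4A often lost its call.

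**Figure D5:**
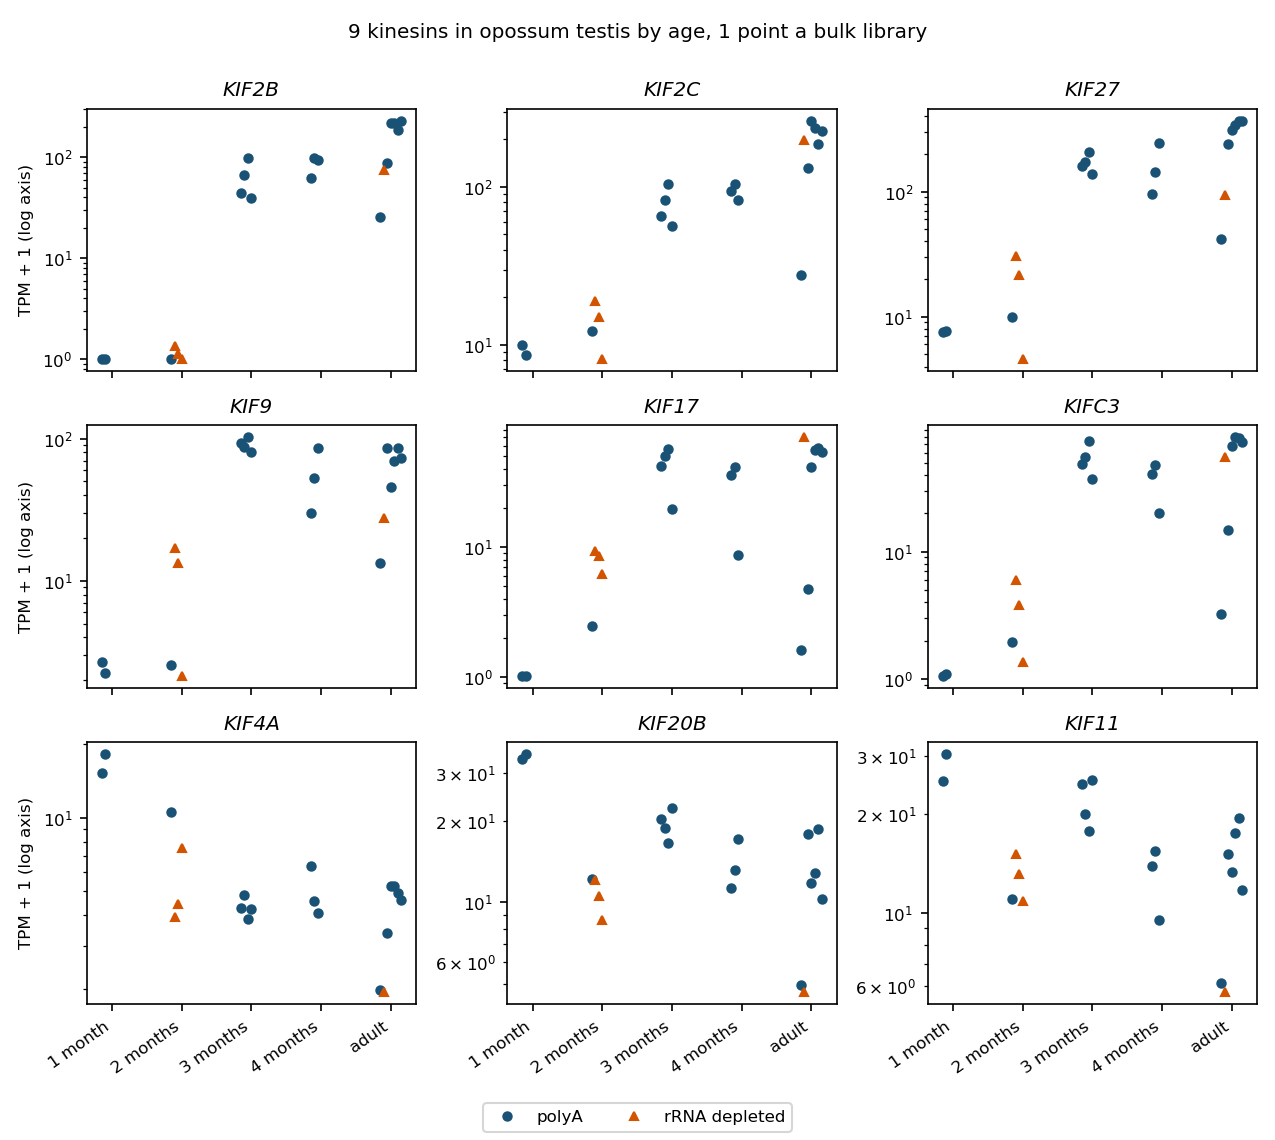
Level of 9 kinesins in opossum testis by age as TPM + 1 on a log axis, with 1 point a bulk library (circles polyA, triangles rRNA depleted). KIF2B lies at or near 0 at 1 and 2 months and at 38.6 to 97.3 TPM at 3 months, and KIF4A is highest at 1 month.

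KIF20A was the spindle motor with the highest level at 3 months. It was at 36.0 and 33.4 TPM at 1 month, 436, 328, 335 and 387 TPM at 3 months and 25.1 to 169.5 TPM in adults, with a median of 78.8 TPM. The 3-month values lie above those of the other ages. KIF18B was at 23.7, 19.4, 19.5 and 20.3 TPM at 3 months and at 0.600 to 9.88 TPM in adults, also below. Summed spermatocyte markers were at 188 to 219 TPM at 1 month, 1520 to 1773 TPM at 3 months and 437 to 1552 TPM in adults. Their part in these values was not tested.

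The 5 members that were lower in adults than at 1 month were spindle motors. KIF4A was at 14.3 and 17.3 TPM at 1 month and 0.928 to 4.28 TPM in adults, a difference of -2.06 ± 0.38 (limma adjusted p = 0.00026). The differences were -1.63 ± 0.42 for KIF20B, -1.30 ± 0.29 for KIF22, -1.27 ± 0.43 for KIF18A and -1.18 ± 0.41 for KIF11. KIF22 was at 33.3 and 34.3 TPM at 1 month and at most 17.1 TPM in adults. The 12 that were higher were led by KIF2B (6.94 ± 0.63), KIFC3 (4.97 ± 0.93), KIF27, KIF17 (4.26 ± 1.08), KIF9 (4.26 ± 0.76), KIF1A (4.23 ± 0.95) and KIF2C (3.99 ± 0.60). Adult replicate 1 was low for many of these, at 24.6 TPM for KIF2B, 40.7 for KIF27 and 26.8 for KIF2C, and without it 14 members rose and 4 fell. Without 1-month replicate 1 the count called was 11.

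In somatic cells of the testis the cargo motors held the levels given here by library. Kif5b was at 356 and 222 CPM in mouse endothelial cells of replicates 1 and 2, and KIF5B at 321, 317 and 236 CPM in those of opossum. Kif1b was at 142, 135 and 101 CPM in mouse Leydig cells, the steroid-making cells, and KIF1B at 75.4, 51.3 and 89.1 CPM in opossum. Kif21a, a motor with no matching symbol in opossum, was at 106, 59.6 and 488 CPM in mouse Sertoli cells. Opossum KIF5C was at 165, 250.3 and 542 CPM in Leydig cells, and mouse Kif5c at 3.10, 10.5 and 1.37 CPM. KIF13B, a motor of vesicles, was at 323, 246 and 304 CPM in opossum immune cells. Kif13a was at 114 and 108 CPM in mouse endothelial cells, and KIF13A at 208, 141 and 169 CPM in opossum ones. Mouse Kif9, a flagellar motor, was at 104, 189.6 and 29.3 CPM in Sertoli cells, where the summed elongating markers were at 87579, 76874 and 15776 CPM. Replicate 3 was lowest in both, and the part of free RNA in these values was not tested.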

How the data were processed

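Single-cell files hold UMI counts per gene and cell, made by the authors with Cell Ranger 6.0.1 per the submitters' processing notes; the deposited counts are estimated counts that are not all whole. Bulk files hold TPM, FPKM and mean read coverage per gene as deposited by the authors (FPKM was used as an alternative and coverage for depth), with HISAT2 2.2.1, SAMtools 1.12 and StringTie 2.1.4 named in the submitters' processing notes. Cells needed 1000 UMIs and 500 detected genes, the 8% with the highest doublet score were dropped, and 23409 mouse and 20007 opossum cells remained. Clusters (leidenalg 0.10.2, kinesins left out) were named from marker lists. Counts were summed per library and class with at least 20 cells, rounded, and tested with edgeR 4.0.16 (TMM, library block). DESeq2 1.42.0 was an alternative. Bulk values were tested with limma 3.58.1 on log2(TPM + 1). Floors are 3 counts over the libraries of a class, and intervals cover counting error only. On simulated data, 54 of 66 genes changed 8-fold were recovered in mouse (17893 genes), 47 in opossum (15054), 36 for species differences (8830) and 35 for age (19300). Of 67 genes changed 4-fold, 14, 26, 14 and 23 were recovered in these. Of 67 changed 2-fold 1, 1, 1 and 3 were, so a change of that size was mostly not called in the simulated data. Only these genes were changed there, and all others were held level between groups. In the real fits of the same contrasts 48.8%, 48.8%, 29.5% and 23.0% of genes were called. The recovered shares thus do not carry over to the real fits. Bulk depth was 2.90 to 7.12 aligned gigabases. In each contrast the called members are named by size of change, at most 15, with a mean of at least 20 CPM or 5 TPM in a compared group; others are given by counts or where their role group is described. Members and lists were chosen with earlier results of these data known.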

Additional observations from a re-analysis of the deposited data

Results flagged for a closer look

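Of 54 groups of bulk libraries examined, 4 held a library far from the others, and chance gives about 1 in 20. KIF19 at 3 months was at 12.0 TPM in replicate 1 and at 9.28 to 9.40 TPM in the others, and KIF6 in the same library was at 36.1 TPM against 27.6 to 27.9 TPM. In adult replicate 1 KIF24 was at 6.77 TPM against 36.7 to 110.2 TPM, and KIF2C was at 26.8 TPM against 129.9 to 262 TPM.

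The change between stages differed between species by the test of the difference itself for these members, given as opossum minus mouse on the log2 scale. From spermatogonia to spermatocytes the differences were 8.25 for KIF2B, 6.16 for KIF9, 5.97 for KIF5C, 3.95 for KIF1B, -2.78 for KIF2A, 2.53 for KIF17, 2.50 for KIF13A, 2.40 for KIF27, 2.30 for KIF7, 2.05 for KIF14, 1.97 for KIF21B and 1.93 for KIF2C. From spermatocytes to round spermatids they were -4.58 for KIF18B, 4.01 for KIFC3, -3.99 for KIF18A, -3.67 for KIF2B, -3.30 for KIF11, -2.65 for KIF22, 2.63 for KIF6, -2.32 for KIF13A, -2.14 for KIF20B, -1.95 for KIF14, -1.94 for KIF23, -1.85 for KIF1B and -1.51 for KIF2A. From round to elongating spermatids they were 6.78 for KIF24, 6.01 for KIF22, 5.68 for KIF18B, 5.62 for KIF20A, 5.28 for KIF23, -4.93 for KIF1A, -4.66 for KIF6, -4.25 for KIF5C, 4.12 for KIF18A, -3.70 for KIFC3, -3.59 for KIF15, -3.42 for KIF13A, 3.36 for KIF2B, -2.78 for KIF21B and -2.17 for KIF1B. The values for KIF2B and KIF9 at the first step and KIF24 at the last depend on the prior count. Opossum spermatogonia held less than 1 UMI of each of the former, and mouse elongating spermatids held 2 of the last. The first KIF2B value also takes in its level in mouse spermatogonia, where the part of RNA from broken spermatids was not tested.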

How the results depend on the processing

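No named member changed direction under the alternatives run. Calls of single members kept their side of the threshold in 400 values and lost it in 50 in mouse, 510 and 50 in opossum, 668 and 92 for species differences and 709 and 47 for age. The number of members called moved by over 1.5 times as follows, and the cause was not tested. From mouse spermatogonia to spermatocytes it was 20 under DESeq2, 20 with cells of at least 500 UMIs and 21 under library totals, and 4 to 17 without single replicates. From mouse spermatocytes to round spermatids it was 3 to 16 without single replicates. In opossum it was 13 with at least 500 UMIs from spermatocytes to round spermatids. From opossum round to elongating spermatids it was 17 with at least 2000 UMIs, 17 without clusters of low depth (chosen after seeing the data), and 7 to 12 without single replicates. For species differences it was 9 at the first step with at least 2000 UMIs and 9 to 13 at the first and the second step without single replicates. For 2 months against 1 month it was 3 with no term for the kind of library and 0 to 1 without single libraries, the 1 being without 4-month replicate 3. It was 1 to 13 for 3 against 2 months and 11 to 18 for adult against 1 month without single libraries. Library totals and the removal of clusters were chosen after seeing the data.

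With the replicate number as a block in bulk, 10 members were called for 3 against 2 months and 12 for adult against 1 month. Without the replicate block in single cells the counts were 12, 16 and 18 in mouse, 18, 19 and 9 in opossum and 13, 12 and 18 for species differences, and with a replicate block by number the last were 13, 12 and 19. Bulk libraries of the same number had a mean correlation of deviations of -0.0096 (29 pairs) against 0.0058 (124 other pairs), so the numbers were not taken to pair the libraries. Summed depth limits genes with under 1 UMI in a class to bounds, and genes with 1 to 3 UMIs to ratios with wide counting intervals.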
